A study of Mus musculus with 18 samples.

Results

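Chromatin accessibility at the promoters of ribosomal protein genes was examined in livers of 9 mouse strains profiled by FAIRE-seq, a method in which fixed chromatin is sheared and extracted so that stretches free of nucleosomes are enriched and, once sequenced, show up as peaks. The genes were chosen by symbol (Rpl or Rps followed by a digit, Rpsa, Rplp0, Rplp1 and Rplp2, without the Rps6k kinases) among autosomal protein-coding genes of GENCODE M1 on mm9, which gave 134 of 21418 genes. The symbol rule mixes 3 kinds of gene. There are 72 standard genes for cytosolic ribosomal proteins (39 of the large subunit, 30 of the small subunit and 3 of the stalk), 53 entries with -ps in the symbol, the usual mark of a pseudogene, and 9 paralogs or other proteins of similar symbol. Rpl10, Rpl36a, Rpl39 and Rps4x lie on the X chromosome and were left out. The mice came from the recombinant inbred lines BXH2/TyJ and BXH19/TyJ, from the parents of these lines, C57BL/6J and C3H/HeJ, and from the inbred strains BALB/cJ, A/J, AKR/J, CBA/J and DBA/2J, and 2 mice of each strain gave 18 samples. All ate the HF/HS (high-fat, high-sucrose) diet, and the 7 inbred strains are described as males that received it for 8 weeks, starting at 8 weeks of age. No group on another diet was analysed here.

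Ribosomal proteins and ribosomal RNA together form the small subunit, which reads the messenger RNA, and the large subunit, which joins the amino acids. The proteins are needed in nearly equal amounts, and their genes are among the most active housekeeping genes of the liver, which makes most plasma proteins. In mammals their transcripts usually start within a run of pyrimidines (a terminal oligopyrimidine tract), and their promoters often hold sites for ETS factors such as GABPA and for YY1.

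Each strain has 1 deposited list of peaks that combines both mice, so no value has a replicate error and no difference between strains could be tested against one. The shortest list (DBA/2J) had 26769 peaks and the longest (CBA/J) 30613. The 9 lists were merged into sites, and a gene had a called promoter in a strain if the list of that strain contributed a peak to a site within 1 kb of a transcription start site (TSS) of the gene. An uncalled promoter may still be open but too weak to pass the caller. The authors' signal is given as the percentile within a strain's own list (100 is the strongest peak), for the strongest promoter peak of the gene. Ranks from lists of different lengths do not measure a change in accessibility. A/J stood apart from the other lists. It had promoter peaks at the largest share of all genes, 57.1% (45.9 to 52.7% in the other 8 strains), and at 3 of 10 hepatocyte marker genes, against up to 9 of 10 in another strain. Promoters of the 6 macrophage, 4 lymphocyte and 2 adipocyte markers were not called in any strain, and at most 2 of 4 genes were called per strain on each of the endothelial, stellate cell and cholangiocyte lists. Results that rest on A/J are therefore given with and without it.

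The promoters of 4 standard genes are shown because they carry the extremes of the set, the gene with the highest and the 2 with the lowest median percentile among genes called in all 9 strains, and the standard gene missing from the most strains. Each window runs 130 bases upstream of the most upstream annotated TSS and 20 bases from it, on the strand of the gene, in NCBIM37 (mm9). Capitals mark letters of a searched motif (named further on) or a pyrimidine run of 7 or more bases at the TSS. They are Rpl15 (chr14:19103886-19104035, minus strand), Rpl23a (chr11:77997067-77997216, minus strand), Rpl5 (chr5:108329391-108329540, plus strand) and Rps15a (chr7:125259681-125259830, minus strand).
Rpl15: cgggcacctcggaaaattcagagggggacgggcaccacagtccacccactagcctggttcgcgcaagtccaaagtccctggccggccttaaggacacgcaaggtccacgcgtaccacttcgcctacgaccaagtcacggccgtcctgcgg
Rpl23a: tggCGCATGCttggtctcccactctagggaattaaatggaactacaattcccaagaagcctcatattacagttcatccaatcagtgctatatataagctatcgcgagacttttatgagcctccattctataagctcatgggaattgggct
Rpl5: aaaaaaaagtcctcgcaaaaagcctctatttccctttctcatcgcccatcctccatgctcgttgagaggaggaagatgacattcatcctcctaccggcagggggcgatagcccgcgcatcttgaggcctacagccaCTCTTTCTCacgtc
Rps15a: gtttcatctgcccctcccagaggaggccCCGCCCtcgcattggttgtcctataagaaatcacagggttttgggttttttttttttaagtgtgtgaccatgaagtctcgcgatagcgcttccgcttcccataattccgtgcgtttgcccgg

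The standard ribosomal protein genes had an accessible promoter in nearly every strain. Of the 72 genes, 68 (94.4%) had a promoter peak in every one of the 9 strains, compared with 41.7% of all 21418 autosomal protein-coding genes. The other 4 (5.56%) were called in 6 or 8 strains, compared with 18.4% of all genes called in 1 to 8 strains. None was without a call, compared with 39.9% of all genes. These counts depend on the call rule. Where the peak of a strain had to cover at least 50% of the merged site, only 31 standard genes (43.1%) passed in every strain, against a background of 22.1% over all genes. By subunit, a peak was present in all 9 strains at 38 of 39 large subunit genes, 27 of 30 small subunit genes and all 3 stalk genes. Over all 134 genes of the symbol rule, 73 (54.5%) were called in all 9 strains, 9 in some and 52 in none, a mixture that follows the kinds of gene.

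The share per strain varied little. All 72 standard genes were called in AKR/J, BALB/cJ, BXH19/TyJ, BXH2/TyJ and C57BL/6J, where the shares of all genes were 49, 49.2, 49.8, 52.7 and 46.8%. In A/J, C3H/HeJ and CBA/J 71 of 72 (98.6%) were called, compared with 57.1, 50.4 and 49.4% of all genes. DBA/2J, the shortest list, called the fewest, 69 of 72 (95.8%; exact Clopper-Pearson 95% interval 88.3 to 99.1%, which covers counting error over genes only), compared with 45.9% of all genes. Over all 134 genes the shares lay between 56.0% in DBA/2J and 59.7% in AKR/J, BALB/cJ and C57BL/6J.

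**Figure D1:**
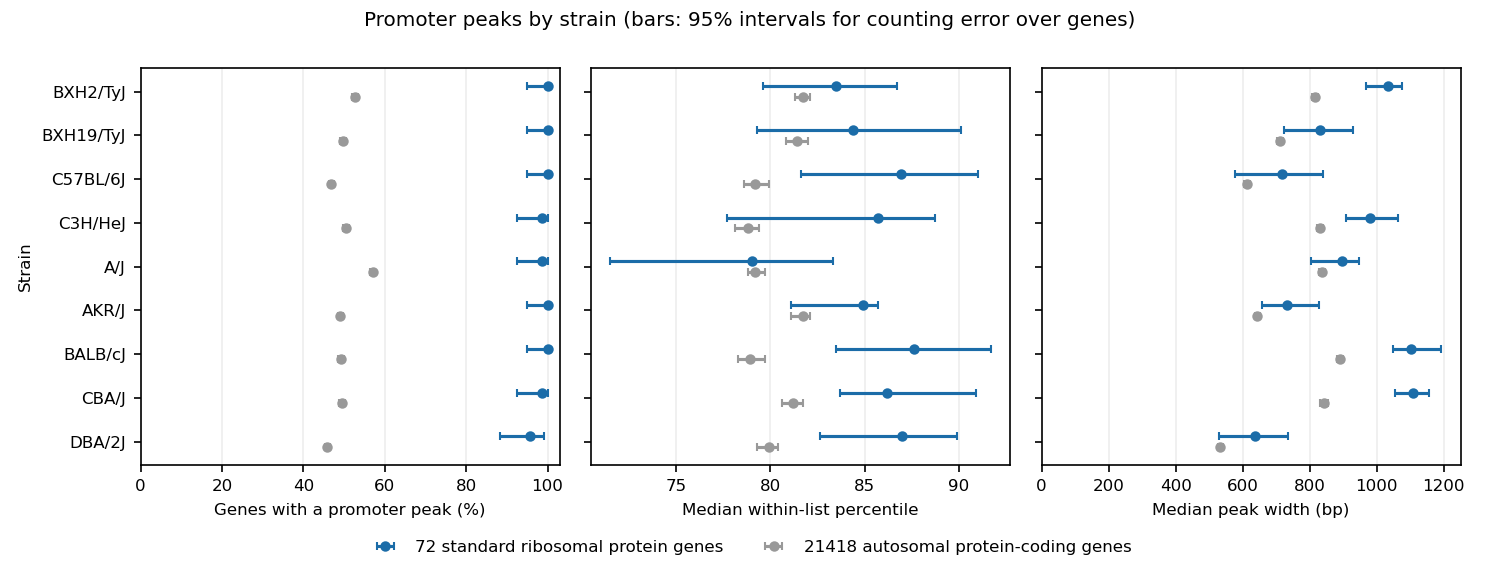
Share of genes with a promoter peak (%), median within-list percentile and median peak width (bp) in each of 9 strains, for 72 standard ribosomal protein genes (blue) and 21418 autosomal protein-coding genes (grey), with bars for 95% intervals of counting error over genes. The blue shares lie between 95.8 and 100%, the grey ones between 45.9 and 57.1%, and the blue median percentile is lowest in A/J (79.0).

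Rps15a, a small subunit protein, was missing from the most strains. It was called at percentile 71.4 in BXH2/TyJ, 72.3 in BXH19/TyJ, 55.7 in C57BL/6J, 68.7 in A/J, 71.1 in AKR/J and 74.2 in BALB/cJ, and not in C3H/HeJ, CBA/J or DBA/2J. The 6 called values lie within 18.5 points of each other, with peaks 545 to 1067 bp wide. Rps20, a protein of the head of the small subunit, was not called in DBA/2J and ran over 57.3 points in the other 8 strains. It ranked at 98.1 in A/J, 94.6 in AKR/J, 93.7 in BXH19/TyJ and 91.9 in C57BL/6J, then at 61.2 in BXH2/TyJ, 52.3 in C3H/HeJ, 43.7 in BALB/cJ and 40.8 in CBA/J. The 4 high and 4 low strains are separated by a gap, with no value between 61.2 and 91.9.

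The other 2 genes had low ranks wherever they were called. Rpl32, a large subunit protein, was not called in DBA/2J and ranked between 17.0 in C57BL/6J and 59.2 in A/J, with a median of 39.5. Rps26, a small subunit protein at the exit of the messenger RNA channel, was not called in A/J and ranked between 18.6 in C3H/HeJ and 65.3 in C57BL/6J, with a median of 47.5. The strongest point of the Rps26 peak lay between positions -351 and -326 from the TSS (negative is upstream) in AKR/J, BXH19/TyJ, C3H/HeJ, C57BL/6J and CBA/J, and between 13 and 38 in BALB/cJ, BXH2/TyJ and DBA/2J. Without A/J in the merge, and with the other strains kept, 3 standard genes were missing from some strain, and without DBA/2J only 2, Rps15a and Rps26.

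Among the 9 paralogs and proteins of similar symbol, Rpl7l1, Rpl22l1, Rpl36al, Rps27l and Rps19bp1 were called in all 9 strains. Rps4y2, on chromosome 6, was called in A/J and C57BL/6J only, at percentiles of at most 30.4. Rpl3l, Rpl10l and Rpl39l, paralogs with expression mainly in muscle or testis, were called in no strain.

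Of the 53 -ps entries, none was called in all 9 strains, 49 (92.5%) were called in none, and the other 4 had weak or distant peaks. Rpl30-ps6 was called in A/J, AKR/J, BXH19/TyJ and BXH2/TyJ with percentiles between 1.6 and 55.4, at a peak whose strongest point lay between -1323 and -1255 bp from the TSS. Rpl7a-ps8 was called in AKR/J, BALB/cJ, C57BL/6J and DBA/2J with percentiles between 20.1 and 53.9, again more than 1 kb upstream of the TSS. Rpl21-ps3 was called in 6 strains at percentiles between 7.3 and 18.6, in a merged site that also holds a TSS of Mia2, and Rpl27a-ps1 in BALB/cJ, C3H/HeJ and CBA/J at 8.6 to 36.0. The authors kept reads with a single location, and 26 of the 53 entries (49.1%) had less than 90% unique 100-base words within 500 bp of the TSS, compared with 8.14% of all genes. None of these 26 was called, and a missing call there cannot be told apart from missing reads. Of the other 27 entries 23 were not called either, and these include 10 of the 13 entries whose words were all unique. Among the standard genes only Rps29 was below 90% (76.3%), while all words were unique at Rps15a, Rps20 and Rpl32, and 94.2% at Rps26.

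Where they were called, the promoters of standard genes ranked high in the lists. Their median percentile was 83.5 in BXH2/TyJ, 84.4 in BXH19/TyJ, 86.9 in C57BL/6J, 85.7 in C3H/HeJ, 79.0 in A/J, 84.9 in AKR/J, 87.6 in BALB/cJ, 86.2 in CBA/J and 87.0 in DBA/2J, compared with 78.8 to 81.7 for the called promoters of all genes. Genes called in all 9 strains are themselves a high-ranking set, and against those the standard genes differed less. The 68 standard genes called everywhere had a higher median than all 8925 such genes in 7 strains, from 85.0 (against 84.9) in AKR/J to 88.9 (against 83.5) in BALB/cJ. In BXH2/TyJ (84.7, against 85.4) and A/J (79.1, against 85.4) they were below. Over strains, 24 of 72 standard genes had a median at or above 90 and 5 below 60, a count not made over all genes. Within single strains, 23.9% (A/J) to 41.7% (BALB/cJ) of called standard promoters reached 90, compared with 25.8% (A/J) to 30.8% (CBA/J) of all called promoters. The large subunit (median over genes 84.5) and the small subunit (84.3) were alike within 1 point, and 4 of the 5 genes below 60 belonged to the large subunit.

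**Figure D2:**
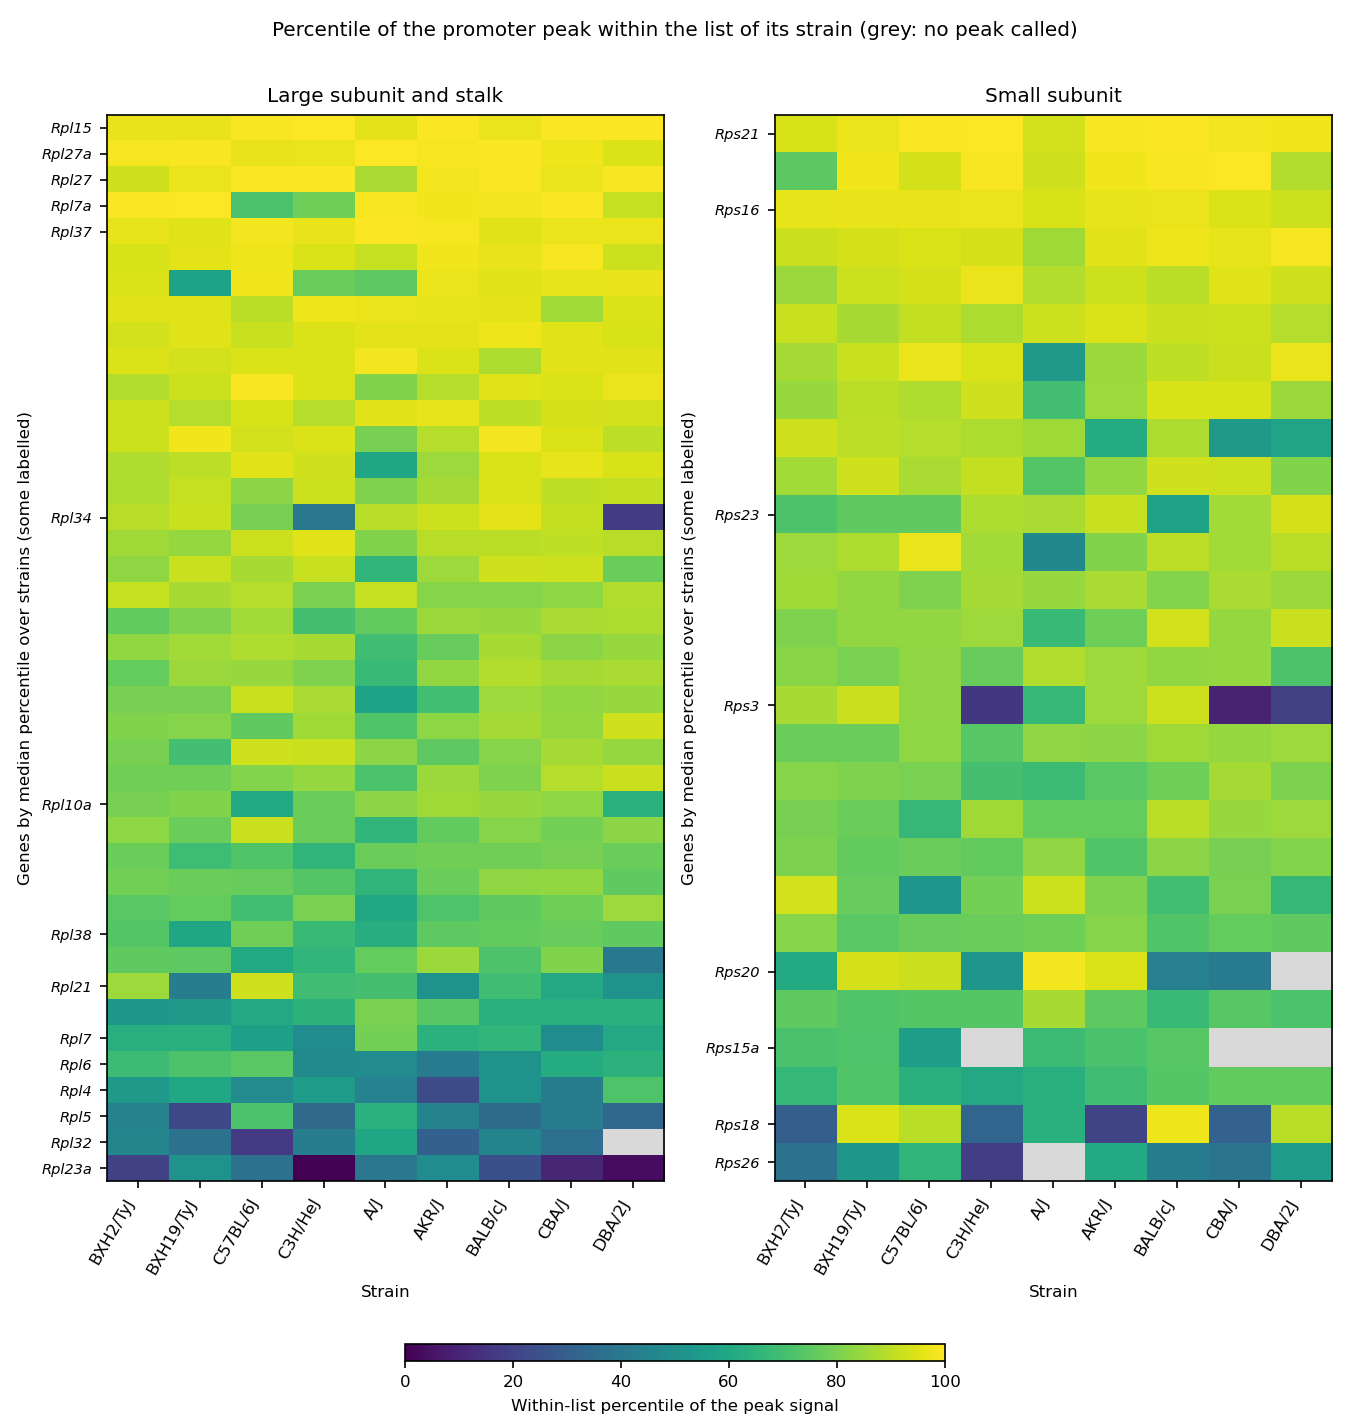
Within-list percentile of the promoter peak (colour, 0 to 100) of 69 of the 72 standard ribosomal protein genes (rows, by median, with labels for some of the genes named in the text) in 9 strains (columns), with grey where no peak was called. Grey cells are at Rps15a (3 strains), Rps20, Rpl32 and Rps26, and the darkest cells at Rpl23a, Rps3, Rpl34 and Rps18.

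The strongest promoters were near the top of every list. Rpl15, a large subunit protein, had the highest median, 99.0, and the smallest range of percentiles, 96.0 in A/J to 99.7 in C3H/HeJ. Its strongest point lay 272 to 297 bp downstream of the most upstream TSS, inside the gene and outside the sequence shown above, and the merged site also holds a TSS of Nkiras1. Rpl27a (98.7), Rps21 (98.3) and Rpl27 (98.2) were also among the 5 genes with the highest medians. Rpl37 and Rps16 were as steady as Rpl15, with ranges of 4.2 and 4.8 points at medians of 97.0 and 96.1.

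The lowest promoters called in all 9 strains all belonged to the large subunit. Rpl23a, which lines the exit of the peptide tunnel, had a median of 24.3, with 51.1 in BXH19/TyJ at the top and 0.3 in C3H/HeJ, 3.5 in DBA/2J and 10.9 in CBA/J at the bottom, so that in C3H/HeJ it only just entered the list. Rpl5, which binds ribosomal RNA together with Rpl11 and restrains Mdm2, had a median of 42.1 (21.7 in BXH19/TyJ to 71.5 in C57BL/6J). Rpl4, a protein of the tunnel wall, had a median of 51.3, and in 8 strains its strongest point lay between -478 and -458 bp, in a merged site that also holds a TSS of Zwilch. Rpl6 (61.8) and Rpl7 (63.0) were the next, so a low rank was not limited to a single gene.

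The stalk genes, which recruit translation factors, were called in every strain. Rplp0 ranked between 65.7 in A/J and 92.6 in BALB/cJ (median 87.0), Rplp1 between 81.2 in A/J and 99.1 in C57BL/6J (94.2), and Rplp2 between 79.8 in C3H/HeJ and 91.4 in A/J and BXH2/TyJ (86.9). A/J was thus the lowest strain for Rplp0 and Rplp1 and shared the highest value for Rplp2. Rpsa, a small subunit protein also known as a laminin receptor, ranked at 92.6 in BXH2/TyJ, 90.1 in BXH19/TyJ, 89.0 in C57BL/6J, 87.6 in C3H/HeJ, 85.8 in A/J and 87.5 in BALB/cJ, and at 61.7 in AKR/J, 58.5 in DBA/2J and 54.0 in CBA/J. Its peaks were 643 bp or wider in BXH2/TyJ, BXH19/TyJ, C3H/HeJ, A/J and BALB/cJ, and 344 bp or narrower in C57BL/6J, AKR/J, DBA/2J and CBA/J, so that C57BL/6J combined a high rank with a narrow peak.

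The spread between strains was like that of other genes. The median range of percentiles over the 9 strains was 19.7 points for the 68 standard genes called everywhere and 19.9 for all 8925 such genes. A range over 50 points was found for 6 standard genes (8.82%), compared with 11.1% of all genes. Without A/J these values were 12.9 points for the standard genes and 16.0 for all genes, and 5 standard genes (7.35%) and 8.01% of all genes had a range over 50.

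The largest range, 82.8 points, was at Rps3, a small subunit protein at the messenger RNA entry that also acts in DNA repair. It ranked at 87.0 in BXH2/TyJ, 92.0 in BXH19/TyJ, 83.4 in C57BL/6J, 66.8 in A/J, 85.3 in AKR/J and 92.4 in BALB/cJ, and at 16.2 in C3H/HeJ, 9.6 in CBA/J and 18.9 in DBA/2J. The last 3 strains form a separate low group, and they are the strains in which Rps15a was not called. In these 3 strains the strongest point of the Rps3 peak lay 87 to 95 bp downstream of the TSS, in A/J 91 bp, and in the other 5 strains 10 to 19 bp. All 100-base words of the Rps3 promoter were unique in the reference. Both genes lie on chromosome 7, with their TSS at 106632248 (Rps3) and 125259700 (Rps15a). C3H/HeJ, CBA/J and DBA/2J were the 3 lowest or missing strains, more than 20 points below the next strain, at these 2 of 72 standard genes (2.78%) and at 8 of 10420 genes called in 6 or more strains (0.0768%), a count chosen after the values of Rps3 and Rps15a were seen.

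Rpl34, a large subunit protein, had a range of 78.1 points. It ranked at 89.3 in BXH2/TyJ, 91.6 in BXH19/TyJ, 79.3 in C57BL/6J, 89.4 in A/J, 92.2 in AKR/J, 95.8 in BALB/cJ and 90.9 in CBA/J, and at 40.1 in C3H/HeJ and 17.7 in DBA/2J. The low strains had their strongest point downstream, at 39 bp in C3H/HeJ and 63 bp in DBA/2J, while the other 7 strains had it between -39 and -3 bp. At Rps3 the strongest point lay downstream in every strain, further from the TSS in the low strains and A/J than in the rest. Rps18, a protein of the head of the small subunit, split the strains more evenly, with a range of 77.0 points. It ranked at 94.3 in BXH19/TyJ, 89.7 in C57BL/6J, 97.5 in BALB/cJ and 89.5 in DBA/2J, at 63.4 in A/J, and at 30.4 in BXH2/TyJ, 32.5 in C3H/HeJ, 20.6 in AKR/J and 31.3 in CBA/J. The 4 high strains had the strongest point between -48 and -37 bp, and A/J, AKR/J and BXH2/TyJ had it between -424 and -361 bp, in a merged site that also holds a TSS of Vps52. Peak width at Rps18 did not follow the rank, with 1389 bp in BXH2/TyJ, 1378 bp in C3H/HeJ and 1632 bp in CBA/J, next to 974 bp in BXH19/TyJ. Rpl23a, described above, and Rpl21 (42.1 in BXH19/TyJ to 92.7 in C57BL/6J) complete the 5 genes with the largest ranges.

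**Figure D3:**
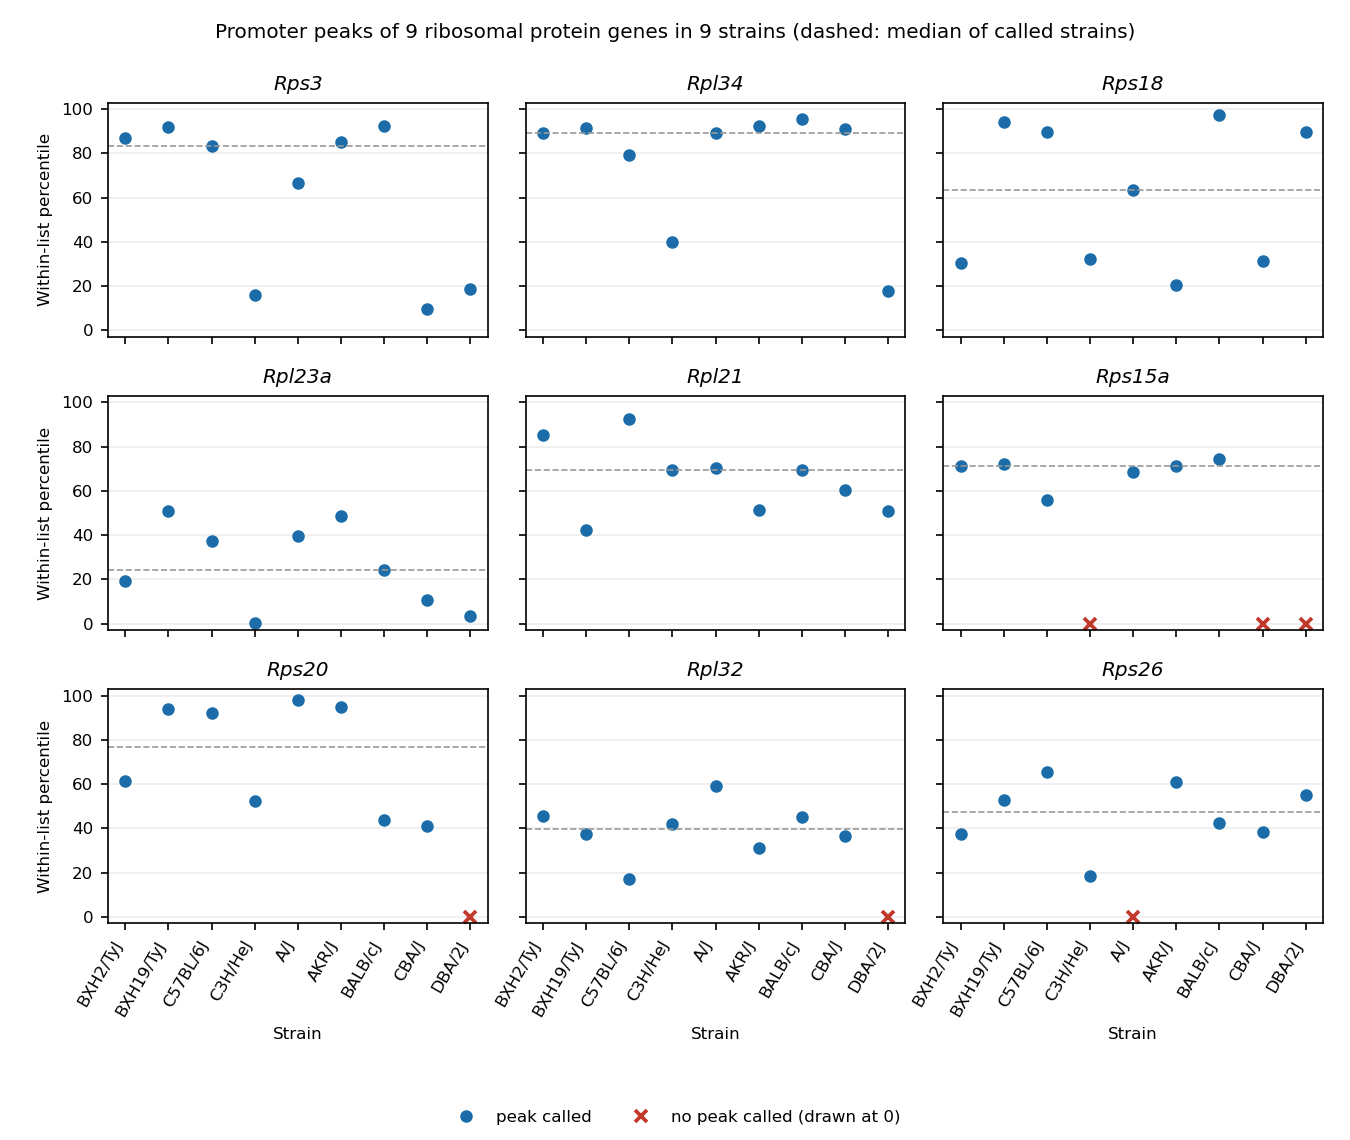
Within-list percentile of the promoter peak by strain for the 5 standard genes with the largest range and the 4 missing from some strain, with a cross at 0 where no peak was called and a dashed line at the median of the called strains. C3H/HeJ, CBA/J and DBA/2J are low at Rps3 (9.6 to 18.9) and without a peak at Rps15a, and Rps18 separates 4 strains at or above 89.5 from 4 at or below 32.5.

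The recombinant strains could be set beside their parents at each promoter. Both parents called 71 standard genes. Their median difference (C57BL/6J minus C3H/HeJ) was 0.9 points, against -1.9 over all genes called in both parents. Of the 71, 7 (9.86%) differed by more than 30 points, compared with 6.14% of all genes. All 7 were higher in C57BL/6J, namely Rps3 (67.3 points), Rps18 (57.2), Rps26 (46.7), Rps20 (39.6), Rpl34 (39.2), Rpl23a (37.1) and Rpl5 (36.9). The direction of such gaps over all genes was not counted. At Rps3 and Rpl34 both BXH2/TyJ and BXH19/TyJ lay at or above C57BL/6J. At Rps18 BXH2/TyJ (30.4) lay near C3H/HeJ (32.5), and BXH19/TyJ (94.3) near C57BL/6J (89.7). At Rps20 BXH2/TyJ also lay nearer to C3H/HeJ and BXH19/TyJ nearer to C57BL/6J, with 61.2 in BXH2/TyJ and 93.7 in BXH19/TyJ, against 91.9 in C57BL/6J and 52.3 in C3H/HeJ. At Rpl23a BXH19/TyJ (51.1) lay above both parents, and at Rpl5 (21.7) below both. BXH2/TyJ lay between the parents at Rpl23a (19.4) and Rpl5 (44.9). At Rps26 both BXH2/TyJ (37.3) and BXH19/TyJ (52.9) lay between the parents. Both recombinant strains called Rps15a, which was called in C57BL/6J and not in C3H/HeJ. The genotypes of these strains at the promoters were not analysed here.

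A/J ranked the ribosomal protein promoters lower than the other strains did. Of the 68 standard genes called everywhere, A/J had the lowest percentile of the 9 strains at 27 (39.7%), compared with 19.6% of all genes, and the highest at 8 (11.8%), compared with 28.6% of all genes. C57BL/6J and DBA/2J, the other strains often lowest over all genes (20.7 and 20.5%), were lowest at 6 and 5 standard genes (8.82 and 7.35%). The A/J percentile minus the median of the other 8 strains had a median of -5.1 points over the standard genes, with 44 of 68 below 0, against 2.2 points over all 8925 genes. Gaps below -20 points were found for 8 standard genes (11.8%), compared with 6.61% of all genes. The lowest were Rps27 (46.5 in A/J, median 86.9 in the other strains), Rps9 (53.6 and 91.7) and Rpl3 (58.6 and 93.4), while Rpl5 was higher in A/J (64.0 and 38.8).

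The position of A/J moved with the base composition of promoters over all genes. Genes were divided into 5 bins of promoter GC content (over 250 bp before to 50 bp after the most upstream annotated TSS), the lowest with 31.0 to 53.3%. By increasing GC content the median difference was -9.2 points (22 genes), -8.6 (24), -3.2 (16) and 1.4 (6) for the standard genes, with none in the highest bin. The same medians over all genes were -0.9, -0.8, 1.6, 2.9 and 6.4 points. In each bin that holds standard genes, their median thus lay below that of all genes. The part of base composition in the A/J ranks was not tested further, and with 1 list per strain the strain and its libraries cannot be told apart.

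**Figure D4:**
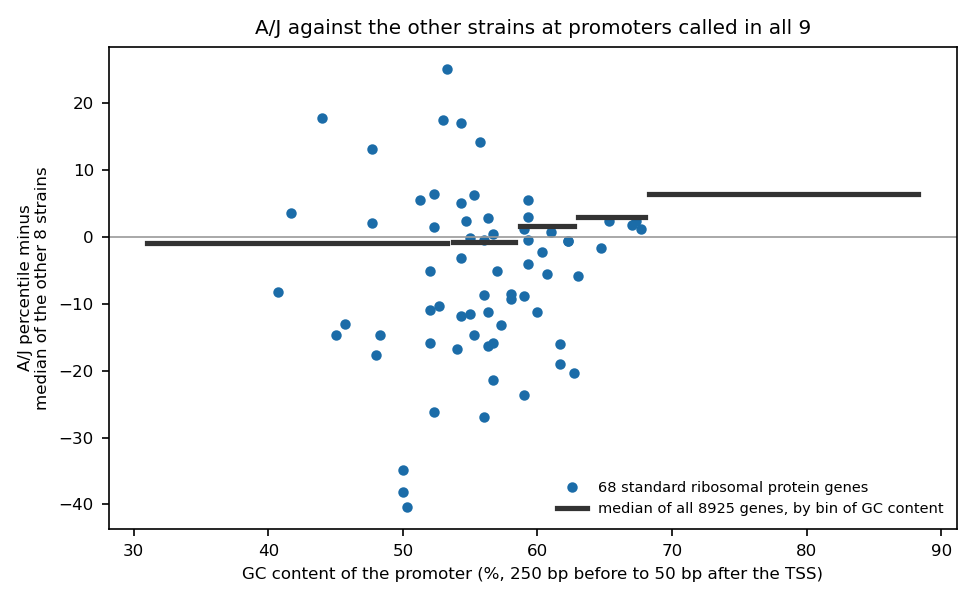
A/J percentile minus the median of the other 8 strains (percentile points) against promoter GC content (%) for the 68 standard genes called in all 9 strains (blue points), with the median of all 8925 genes in each of 5 bins of GC content (dark lines). Most blue points (44 of 68) lie below 0, and the dark lines lie at -0.9 in the lowest and 6.4 in the highest bin.

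The order of the standard genes was in part shared between strains. Over the 68 genes Spearman's rho between the percentiles of 2 strains was highest for BALB/cJ with BXH19/TyJ (0.91, and 0.90 over all 8925 genes). It was lowest for A/J with C57BL/6J (0.33), which was also the lowest pair over all genes (0.48). Without A/J the lowest pair was BXH2/TyJ with DBA/2J (0.60, and 0.64 over all genes). In most pairs rho was lower over the standard genes than over all genes. These values describe lists made by 1 pipeline from genes with shared base composition.

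Ribosomal protein promoters had wide peaks. The median width over standard genes was 1034 bp in BXH2/TyJ, 832 bp in BXH19/TyJ, 716 bp in C57BL/6J, 979 bp in C3H/HeJ, 897 bp in A/J, 732 bp in AKR/J, 1103 bp in BALB/cJ, 1107 bp in CBA/J and 636 bp in DBA/2J. The same medians over the called promoters of all genes lay between 532 bp in DBA/2J and 889 bp in BALB/cJ, and the standard genes were above all genes in each strain. DBA/2J had the narrowest of the 9 peaks at 33 of 68 standard genes, compared with 49.7% of all genes. The widest promoters by their median over strains were Rpl10a (1836 bp), Rpl7a (1704 bp) and the paralog Rpl36al (1543 bp), and the narrowest Rps23 (322 bp), a protein of the decoding centre, Rpl38 (350 bp) and Rpl4 (352 bp). Width and rank were only loosely tied, since Rps23 had a median percentile of 86.2 and Rpl10a of 81.2. Spearman's rho between width and percentile lay between 0.12 and 0.41 over standard genes of a strain, and between 0.43 and 0.54 over all genes. The widest single peak was 6162 bp at Rpl18 in CBA/J, in a merged site of 6821 bp that holds a TSS of Sphk2.

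Measured from the most upstream annotated TSS, the peaks reached further into the gene than away from it. A peak at a later TSS of a gene counts as downstream here. At the TSS a peak covered a median over strains of 93.1% of the standard genes, at 500 bp downstream 59.7%, and at 500 bp upstream 23.6%. The same medians over all genes, called or not, were 42.5, 22.3 and 14.1%. Measured from the nearest annotated TSS of the gene, and not from the most upstream one as elsewhere, the strongest point of the peak lay within 100 bp for 74.6% (A/J) to 86.1% (C57BL/6J) of called standard genes, compared with 58.4 to 63.5% of all called genes, with median positions between -47 and -36 bp. Rplp2, like Rpl15, had its strongest point inside the gene in every strain, at 222 to 241 bp. Small nucleolar RNA genes, often carried by introns of ribosomal protein genes, are annotated inside 28 of the 72 standard genes, and 10 of the 72 have one that starts within the promoter site.

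**Figure D5:**
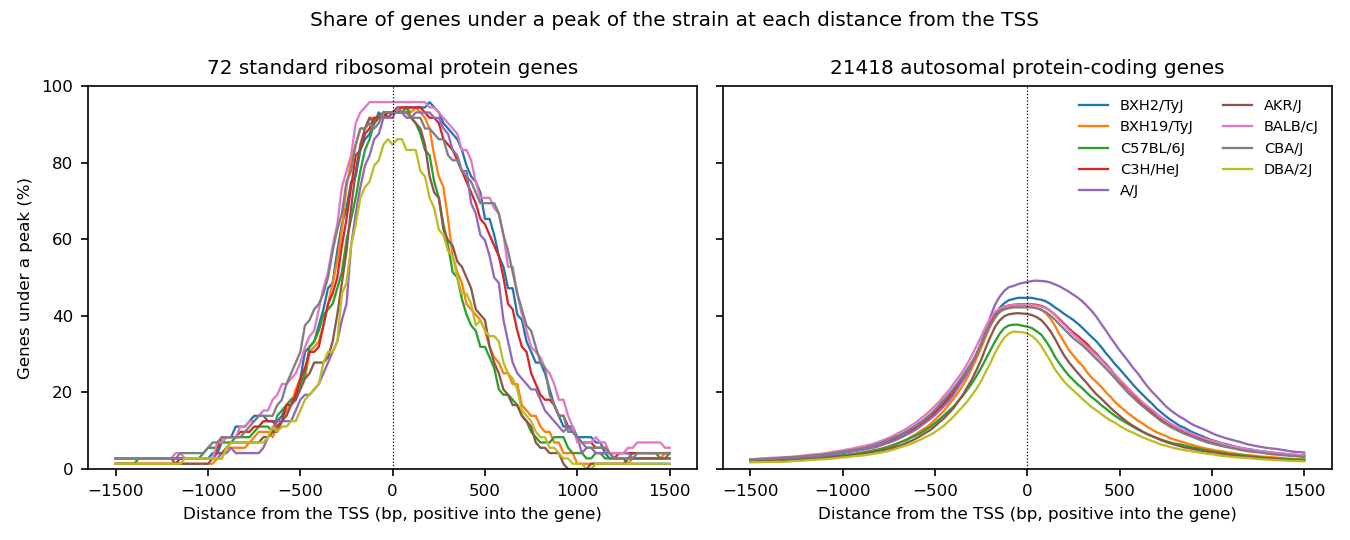
Share of genes under a peak of the strain (%) against distance from the most upstream annotated TSS (bp, positive into the gene) in 9 strains, for 72 standard ribosomal protein genes (left) and 21418 autosomal protein-coding genes (right). On the left the curves reach 84.7 (DBA/2J) to 95.8% (BALB/cJ) at the TSS and extend further downstream than upstream.

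Some of these promoters are shared with a neighbour, about as often as at other genes. At 14 of 72 standard genes (19.4%) the promoter site held a TSS of another protein-coding gene, compared with 18.9% of the 12871 genes with a promoter site, and 13 of the 14 had a neighbour on the opposite strand. Examples are Med22 at Rpl7a, Trappc4 at Rps25, Sphk2 at Rpl18, Vps52 at Rps18 and 1700034F02Rik at Rps27a. A peak at these sites cannot be assigned to 1 of the genes.

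The authors also deposited a list of the most variable and a list of the most common chromatin sites of the 7 inbred strains, ranked on read counts of the same libraries, so these lists are not independent of the peaks above. Sites at 4 standard genes (5.56%), Rps18, Rpl34, Rps20 and Rpsa, overlapped a variable site, close to the 5.4% of the 12871 genes with a site. Sites at 7 standard genes (9.72%) overlapped a common site, compared with 7.62% of genes with a site. All 7 were called in every strain, and among genes called in all 9 strains the shares were 10.3% of standard and 10.1% of all genes. The 7 were Rps27a (whose product is made as a fusion with ubiquitin), Rps3a, Rpl28, Rps16, Rpl18, Rplp2 and Rps25, and among the paralogs Rps27l also overlapped one. The ranges of percentiles of these 7 genes lay between 4.8 points at Rps16 and 19.3 at Rps27a. The median range over the standard genes called everywhere was 19.7. Common sites were chosen by the authors as the least variable in read counts, so small ranges there are not a separate result. Rps3 and Rps15a overlapped neither list.

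Motifs were searched in 250 bp before to 50 bp after the most upstream annotated TSS on both strands, each beside its share over all 21418 promoters of the same length. At some genes, such as Rpl24, Rps2, Rps10 and Rpl15, the strongest point of the peak lay outside this window in every strain. The ETS word CCGGAAG was found at 22 of 72 standard promoters (30.6%; 11.1% of all, and 21% of the 8925 genes called in all 9 strains). The YY1 word ATGGCGG was found at 12 (16.7%; 5% of all and 8.58% of those called everywhere). Either word was present at 30 (41.7%; 15% of all). A run of 7 or more C or T that comes within 10 bp of the TSS was found at 26 (36.1%; 20.1% of all), as at Rpl5 above, whose run starts 6 bp from the TSS. The 53 -ps entries, most of them not called, held the run at 32.1% and the YY1 word at 13.2%, but the ETS word at 3.77%. The Sp1 word GGGCGG was found at 44.4% (44.3% of all and 65.8% of those called everywhere), and the TATA box word TATAAA at 11.1% (13.5% of all and 6.23% of those called everywhere). The TATAAA share was thus below that of all genes and above that of genes called everywhere. The E-box CACGTG was found at 12.5% (7.78% and 10.9%) and the NRF1 word GCATGCG at 9.72% (4.42% and 7.42%). In the shorter window from 100 bp before to 50 bp after the TSS the NRF1 word was at 2.78% of standard promoters, 2.99% of all and 5.19% of those called everywhere. The median GC content of standard promoters was 55.8%, compared with 55.7% of all and 60.7% of genes called everywhere.

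The motif words did not sort the promoters by rank in a simple way. Standard genes called everywhere had a median percentile of 84.7 with the ETS word (20 genes) and 86.2 without it (48 genes), of 89.0 with the YY1 word (12) and 84.7 without it (56), and of 90 with the Sp1 word (30) and 83.2 without it (38). Rpl15, the gene with the highest median percentile, held the TATA box word in this window and none of the other 5 words. A word is a match of letters and not evidence of binding.

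Other genes of protein synthesis were also called in most strains. Fau (made as a fusion with a ubiquitin-like protein) and Gnb2l1 (the scaffold Rack1), ribosomal protein genes that the symbol rule leaves out, were called in all 9 strains, with median percentiles of 98.6 and 63.9. So were all 20 ribosome biogenesis genes and 15 of 16 translation factors, Eif3f being absent in C3H/HeJ. Of 77 mitochondrial ribosomal protein genes, 66 (85.7%) were called in all 9 strains, 10 in some and 1 in none. The standard cytosolic genes called everywhere had a median percentile of 85.6 and a median width of 943 bp over strains. The mitochondrial genes called everywhere were lower, at 80.1 and 756 bp. Translation factors called everywhere ranked higher with wider peaks (89.6 and 1159 bp). Ribosome biogenesis genes ranked higher with narrower peaks (88.8 and 832 bp). In A/J alone the cytosolic genes had a median of 79.1, the mitochondrial genes 80.0, the translation factors 90.3 and the ribosome biogenesis genes 86.4. Of the factors whose sites were searched, Yy1 (98.8), Sp1 (98.7), Gabpa (93.0), Tbp (89.7) and Myc (42.9) were called in all 9 strains, and Nrf1 in 7.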

How the data were processed

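FAIRE-seq reads of liver were aligned by the authors with bowtie1 to versions of mm9 carrying the SNPs of each strain, and reads with a single location were kept without improper pairs and PCR duplicates. Reads of the recombinant strains were aligned both to mm9 and to the C3H/HeJ version, and which alignment gave the deposited lists is not given in the sources used here, nor are tool versions or an IDR threshold. Peaks were called with F-seq (400 bp feature length) in each library and combined over replicates with IDR. The deposited lists give the position of each peak and the signal value of the authors' caller, with no stated scaling across lists. The variable and common sites (5% of the union each) were ranked by the authors with DESeq and deposited as positions. Read counts and coverage tracks were not used here, so the depth behind a single peak was not examined. The paper lists the reads kept for each library. They differ between strains, and both A/J libraries are among the smaller ones. The part of depth in the calls and ranks was not tested.

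The 9 lists were merged into 51957 sites, of which 83 lie at standard genes. A merged site within 1 kb of the TSS of any protein-coding transcript was a promoter site, called in a strain by at least 1 bp of overlap. The strongest such peak gave percentile and width. Genes and sequence came from GENCODE M1 and NCBIM37, and 0 of 269134 peaks lay outside its chromosomes. Since each strain has 1 list, no difference between strains was tested against replicate error, and Dixon's ratio served only to pick out single strains in the closing section. The members and gene lists were chosen with earlier results of these data known. The report names every gene missing from some strain, the 5 highest and 5 lowest medians, the 5 largest and 3 smallest ranges, the 3 widest and 3 narrowest promoters, genes at variable or common sites, and Rplp0, Rplp1, Rplp2 and Rpsa. Some genes are not reported here by name or sequence, but counts and medians over gene groups hold them. Genes with the largest A/J differences and those of the closing section were named after their values were seen. Alternatives were windows of 500 bp and 2 kb, the TSS of the gene record, the strain's own peak within 1 kb, the 20000 strongest peaks of each list, cover of at least 50% of the merged site, standard genes only, each strain left out and the 7 inbred strains only. Merging and calling were tested on simulated data. The work used numba 0.67.0, pandas 2.3.3, numpy 2.4.6, matplotlib 3.10.9, scipy 1.17.1 and pysam 0.24.0 under Python 3.11.15, and samtools 1.23.1.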

Additional observations from a re-analysis of the deposited data

Results flagged for a closer look

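Over the 9 strains, 68 sets of values were examined for 1 strain far from the rest (65 of the 68 standard genes called everywhere, and the share, median percentile and median width of the standard genes), by Dixon's ratio at its 95% value. For independent and normally distributed values, chance puts about 1 in 20 sets past this value. Percentiles end at 100 and all sets come from the same 9 lists, so this rate need not hold here. There were 11 sets past the value, 9 of them single genes. The screen was not run over other genes, so these counts have no background share. Over all 8925 genes called everywhere, A/J had the lowest percentile at 19.6% and the highest at 28.6%. The median percentile of the standard genes was 79.0 in A/J, below 83.5 to 87.6 in the other 8 strains. The share with a promoter peak was 95.8% in DBA/2J, below 98.6 to 100% in the others.

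Of the 9 genes, 6 had A/J as the low strain. These were Rps29 (70.0 in A/J, 84.6 to 94.1 in the others), Rpl3 (58.6, 85.5 to 96.1), Rps27 (46.5, 81.1 to 97.0), Rps9 (53.6, 84.8 to 97.2), Rps19 (85.7, 92.1 to 98.5) and Rpl13a (79.3, 89.0 to 98.1). At Rps27a A/J was the high strain (86.8, 67.5 to 75.7 in the others). BXH2/TyJ was low at Rps2 (74.8, 88.3 to 99.7), and BALB/cJ at Rpl35 (87.8, 93.1 to 98.1). Rps3, Rpl34 and Rps18 were not among them, since 2 or more strains are low there.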

How the results depend on the processing

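No paired analysis was possible because each deposited list combines the replicates of a strain, and for the same reason no replicate could be left out. Of 919 recomputed values of 66 results, 882 stayed within the 95% interval of the reported value (counts within 1.5 times) and 37 did not. Every value stayed there with windows of 500 bp or 2 kb, the strain's own peak, the TSS of the gene record, the 7 inbred strains, and each strain left out, except that without DBA/2J 2 standard genes were missing from some strain, in place of 4. Shares, percentiles and widths come from the strain's own list. Leaving out other strains could change them only through the merged sites, so that most of these values stayed says little. With the 20000 strongest peaks of each list 10 standard genes were missing from some strain. All genes were not counted under this rule, so the number has no background share.

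The call rule mattered most where at least 50% of the merged site had to be covered, a rule that narrow lists meet less often. Then 31 standard genes were called in all 9 strains and 41 in some, and 35 and 47 of all 134 genes, compared with 22.1 and 38% of all 21418 genes. The share of standard genes was 91.7% in A/J and CBA/J, 66.7% in AKR/J, 77.8% in BXH19/TyJ, 93.1% in BXH2/TyJ, 90.3% in C3H/HeJ, 70.8% in C57BL/6J and 59.7% in DBA/2J, and that of all 134 genes 40.3% in AKR/J, 46.3% in BXH19/TyJ, 43.3% in C57BL/6J and 35.8% in DBA/2J. Median widths of the called standard genes were 881 bp in AKR/J, 842 bp in C57BL/6J and 863 bp in DBA/2J (all 134 genes 859, 807 and 782 bp), and A/J had the lowest percentile at 13 standard genes. With standard genes alone in place of all 134, shares were 98.6% in A/J, C3H/HeJ and CBA/J, 95.8% in DBA/2J and 100% in the other 5 strains, with 4 genes in some strains. From 100 bp before to 50 bp after the TSS the NRF1 word was found at 2.78% and the E-box at 5.56% of standard promoters, against 2.99 and 4.8% of all promoters. Alternatives for medians kept the percentile of the full list.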
